A study of Mus musculus with 4 samples.

Results

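The core circadian clock genes were examined in the mouse hippocampus, with and without repeated social defeat stress (R-SDS). The 10 genes were listed by symbol (Per1, Per2, Per3, Cry1, Cry2, Clock, Npas2, Nr1d1, Nr1d2 and Dbp), and 9 of them had a transcript cluster carrying a single gene symbol, among 19938 such genes on the array. The expression of Npas2 was not analysed here. All samples came from male C57BL/6JJmsSlc mice aged 11 to 12 weeks that were kept under cycles of 12 h of light and dark. R-SDS mice (2 arrays) met an ICR male, screened for aggressiveness, for 10 min on each of 10 days. They lived beside an ICR male behind a divider for the rest of the day, and the pairs were randomized daily. Control mice (2 arrays) lived in pairs in divided cages with no ICR male and a new partner each day. The study calls the R-SDS mice of its arrays susceptible, meaning that they avoided an ICR mouse afterwards, but the labels name only the stress. The sources used here do not give the hour at which the brains were taken, which limits any reading of genes whose mRNA follows the time of day.

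The circadian clock is a loop of transcription that runs in nearly every cell with a period of about a day. CLOCK, or its relative NPAS2, pairs with BMAL1 (the product of Arntl) and binds DNA elements called E-boxes to drive the Per, Cry, Nr1d and Dbp genes. PER and CRY proteins return to the nucleus and repress that pair, and the receptors REV-ERBα and REV-ERBβ (Nr1d1 and Nr1d2) repress Arntl, Clock and Npas2 through ROR elements. The suprachiasmatic nucleus of the hypothalamus sets the phase from light, and glucocorticoids and neuronal activity can also induce Per1 in tissues such as the hippocampus.

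No core clock gene passed the test between R-SDS and Control. Of the 9 genes, 0 passed an adjusted p of 0.05 (limma, Benjamini-Hochberg over all transcripts), which 0% of the 21789 tested transcripts passed, and 0 had an unadjusted p under 0.05, which 1.01% of the transcripts had. None passed the study's own thresholds (more than 0.5 log2 units apart with an unadjusted p under 0.05). Here they were applied to limma's p in place of the methods' t-test, and 0.147% of the transcripts passed upward and 0.193% downward. The wider departures lay in a single array. R-SDS 1 held the highest value of 7 of the 9 genes and the lowest value of Clock, whereas R-SDS 2 lay near the controls.

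The DNA beside the start sites shows which members carry the elements of the loop close to their promoters. RefSeq windows of GRCm38.p6, from 250 bases before to 50 bases after a transcription start, were found for 9 of the 10 members (12 windows) and not for Per2. They were searched on both strands for the E-box CACGTG, the variant CACGTT (E-prime box), the D-box TTATGTAA bound by DBP, the ROR element TAGGTCA and the cAMP response element TGACGTCA. The E-box and its variant differ in their last base only and no match served for both. The 5 members with a match are printed 5′ to 3′ on the strand of the gene, in lower case with the matches in capitals (an E-prime box on the other strand reads AACGTG).
Per1, chr11:69098699-69098998, plus strand: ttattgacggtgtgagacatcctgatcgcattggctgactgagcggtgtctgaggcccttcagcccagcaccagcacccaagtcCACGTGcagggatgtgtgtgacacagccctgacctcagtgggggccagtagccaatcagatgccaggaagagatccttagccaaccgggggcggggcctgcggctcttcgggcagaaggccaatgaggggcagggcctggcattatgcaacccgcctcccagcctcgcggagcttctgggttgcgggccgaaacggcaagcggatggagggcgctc
Per3, chr4:151044616-151044915, minus strand: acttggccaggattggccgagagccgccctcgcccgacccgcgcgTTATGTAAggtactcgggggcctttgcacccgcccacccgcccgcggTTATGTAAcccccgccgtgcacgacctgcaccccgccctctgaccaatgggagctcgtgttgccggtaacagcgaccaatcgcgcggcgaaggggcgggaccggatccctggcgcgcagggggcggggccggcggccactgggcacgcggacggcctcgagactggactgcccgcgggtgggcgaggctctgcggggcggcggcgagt
Cry1, chr10:85185005-85185304, minus strand: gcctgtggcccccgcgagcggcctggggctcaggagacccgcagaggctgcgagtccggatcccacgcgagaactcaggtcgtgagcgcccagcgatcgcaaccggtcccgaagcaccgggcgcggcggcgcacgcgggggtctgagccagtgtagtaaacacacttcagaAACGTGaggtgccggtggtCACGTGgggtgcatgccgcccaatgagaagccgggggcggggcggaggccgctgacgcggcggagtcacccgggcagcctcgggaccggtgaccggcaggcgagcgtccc
Cry2, chr2:92434020-92434319, minus strand: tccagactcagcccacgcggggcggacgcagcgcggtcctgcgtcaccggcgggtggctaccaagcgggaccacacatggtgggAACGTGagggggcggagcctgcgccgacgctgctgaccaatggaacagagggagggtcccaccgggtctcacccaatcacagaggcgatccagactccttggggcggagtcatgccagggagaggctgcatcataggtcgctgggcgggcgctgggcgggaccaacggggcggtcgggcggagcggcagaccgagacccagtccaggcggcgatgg
Nr1d1, chr11:98775328-98775627, minus strand: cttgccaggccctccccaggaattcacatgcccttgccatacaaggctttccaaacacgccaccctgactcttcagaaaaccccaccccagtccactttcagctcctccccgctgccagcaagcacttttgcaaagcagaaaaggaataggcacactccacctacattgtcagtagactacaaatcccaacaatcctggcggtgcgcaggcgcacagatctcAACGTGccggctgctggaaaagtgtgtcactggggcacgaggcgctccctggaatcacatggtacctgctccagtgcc

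Per1 held an E-box beginning 166 bases before its start, and Cry1 held an E-box 60 bases and an E-prime box 79 bases before. Cry2 and Nr1d1 held E-prime boxes 166 and 28 bases before their starts. Per3 held 2 D-boxes, which began 205 and 158 bases before its start. Among all 32851 windows of the same length, 7.15% held the E-box, 4.68% the E-prime box, 0.938% the D-box, 2.61% the ROR element and 1.79% the cAMP response element. The windows of Clock, Npas2, Nr1d2 and Dbp and the other window of Per1 had none of these letters. The matches describe the sequence and are not measured binding sites.

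One array stood apart before any clock gene was considered. The choroid plexus, the secretory tissue of the ventricles that borders the hippocampus, was represented by 16 measured markers of 18, and all 16 were highest in R-SDS 1. Their summed level (linear scale) was 3876 and 1047 for Control 1 and 2 but 15359 and 1348 for R-SDS 1 and 2. The median difference was 2.14 log2 units within replicate number 1 and -0.04 within number 2. Within number 2, 8 of the 16 markers were higher in R-SDS, among them Ttr by 1.36. Ttr read 11.38 and 7.43 in Control 1 and 2, so the controls also differed. Markers of hippocampal neurons were measured for 10 of 10 genes. Their summed levels were 14181 to 15262 in Control and 14387 to 15696 in R-SDS, a sum weighted to the most abundant of them. Of the 10, 8 had a higher and 2 a lower mean in R-SDS, with a median difference of 0.05. Single markers differed more. Within numbers 1 and 2 the differences were 0.45 and 0.33 for C1ql2 and 0.47 and 0.31 for Dsp. No measured marker of any list was under its array's lower quartile in all 4 arrays. For the choroid plexus list this rests on R-SDS 1. Cldn2, Steap1, Calml4 and F5 were under the lower quartile in Control 1, Control 2 and R-SDS 2. Steap1, for example, read 3.98, 3.98 and 3.79 there, against quartiles of 4.88, 5.08 and 5.05. Some choroid plexus differences within number 2 therefore lie near the floor. Genes of the suprachiasmatic nucleus gave a median group difference of 0.02, with Vip between 6.87 and 7.32 and Avp between 5.67 and 5.85 on the log2 scale. Markers of brain endothelium (9 of 10 measured) had median differences of 0.29 within number 1 and 0.14 within number 2, and their summed levels were 2458 to 2803 in Control and 2735 to 3350 in R-SDS. The interquartile range of all rows was wider in Control 1 (3.34) and R-SDS 1 (3.37) than in Control 2 (3.06) and R-SDS 2 (3.11), so differences within each number are given beside those of the groups. The part of choroid plexus or vessel tissue in the clock values was not tested.

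Among the period genes, whose proteins form the repressor complex with the cryptochromes, Per1 had the widest range. The Control arrays 1 and 2 gave log2 values of 8.27 and 8.03, and the R-SDS arrays 1 and 2 gave 8.85 and 8.20. R-SDS 1 was high, and R-SDS 2 fell between the controls, so the groups overlapped. The means were 8.15 ± 0.17 in Control and 8.53 ± 0.46 in R-SDS (SD, n = 2 each), a difference of 0.38 log2 units with a standard error of 0.24 and a 95% interval of -0.20 to 0.95. The difference was 0.58 (1.49-fold) within number 1 and 0.17 within number 2, and without R-SDS 1 the group difference was 0.05 log2 units. In bulk tissue, a change in the number of cells of a type and a change in RNA per cell cannot be told apart.

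Per2 repeated the order of Per1 at smaller size. Its log2 values were 7.68 and 7.41 in Control 1 and 2 and 7.88 and 7.47 in R-SDS 1 and 2. The array numbered 1 was the higher in both groups, and the group difference of 0.13 (standard error 0.19) was smaller than the difference of 0.27 between the controls. It was 0.20 within number 1, 0.06 within number 2, -0.07 without R-SDS 1 and -0.0034 without Control 2. Per3 values were 7.32 and 7.38 in Control and 7.42 and 7.41 in R-SDS. Both R-SDS arrays lay above both controls, yet the 4 arrays spanned only 0.10 and the group difference was 0.06 (standard error 0.13, 95% interval -0.25 to 0.37), with 0.10 within number 1 and 0.03 within number 2.

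**Figure D1:**
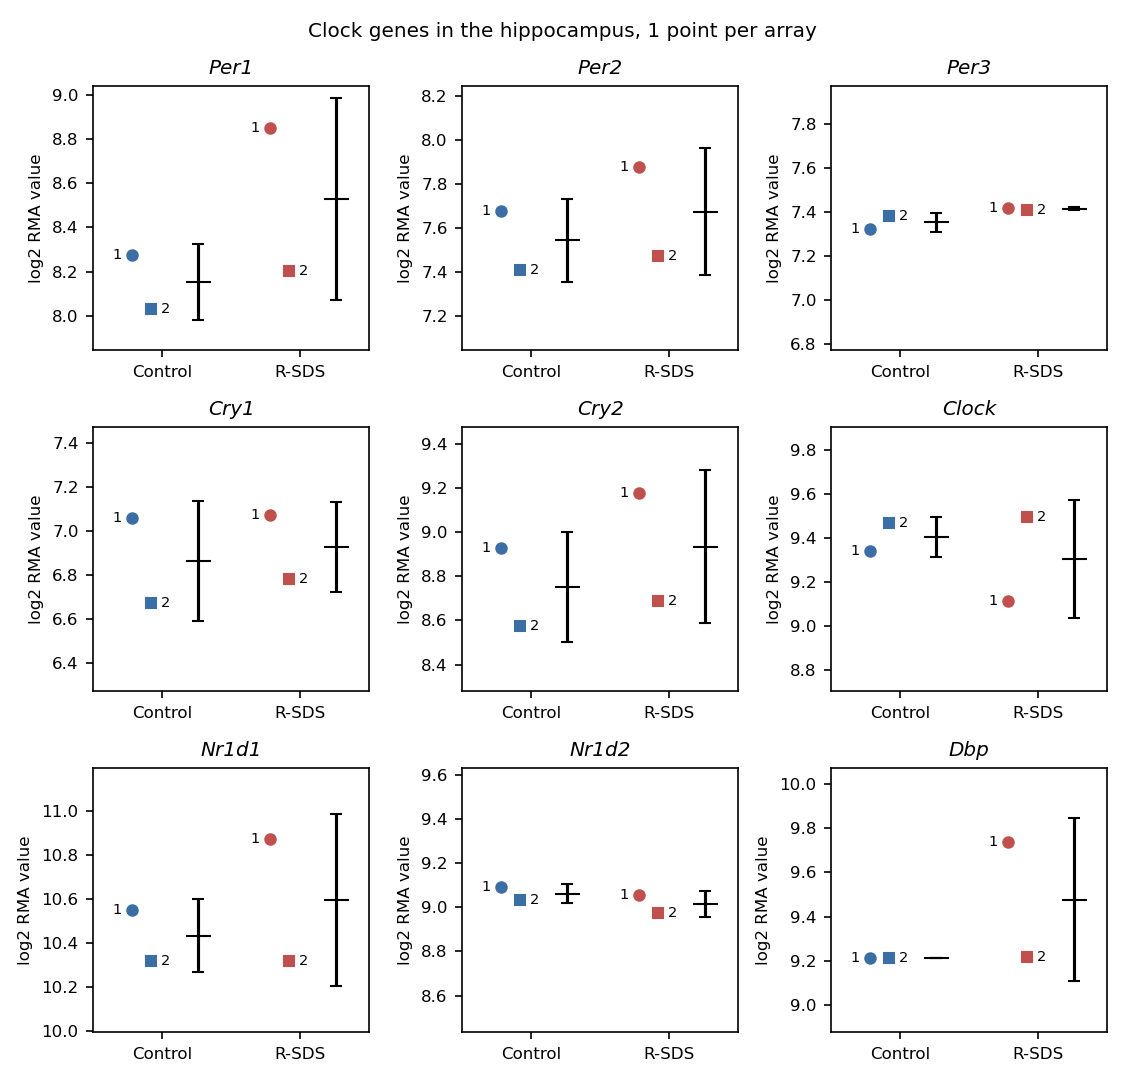
Log2 RMA value (vertical axis, spanning 1.2 log2 units in each panel) of each measured core clock gene in Control (blue) and R-SDS (red), with circles for arrays numbered 1, squares for arrays numbered 2, and black bars for the mean and SD of 2 arrays. R-SDS 1 is the highest point for Per1 (8.85), Nr1d1 (10.87) and Dbp (9.74) and the lowest for Clock (9.11), while R-SDS 2 lies close to the controls.

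The cryptochromes, the partners of the period proteins and the stronger repressors of the activator pair, followed the array number. Cry1 values were 7.06 and 6.67 in Control 1 and 2, against 7.07 and 6.78 in R-SDS 1 and 2. The arrays numbered 1 were the high ones in either group, and the group difference of 0.06 (standard error 0.19) was small beside the 0.39 between the controls. Cry2 values were 8.93 and 8.58 in Control 1 and 2 and 9.18 and 8.69 in R-SDS 1 and 2. R-SDS 1 was the highest array, the groups overlapped, and the difference was 0.18 (standard error 0.21, 95% interval -0.34 to 0.71). Within numbers 1 and 2 the differences were 0.01 and 0.11 for Cry1 and 0.25 and 0.11 for Cry2. Without R-SDS 1 they turned to -0.08 for Cry1 and -0.06 for Cry2, and without Control 2 that of Cry1 was -0.13.

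Clock, the activator of the loop, stood low in the array where the repressors stood high. Its values were 9.34 and 9.47 in Control 1 and 2, against 9.11 and 9.49 in R-SDS 1 and 2. R-SDS 1 was the lowest array and R-SDS 2 the highest, so the R-SDS arrays enclosed both controls. The group difference was -0.10 (standard error 0.17, 95% interval -0.52 to 0.32), with -0.23 within number 1 and 0.03 within number 2, and it was 0.09 without R-SDS 1.

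The nuclear receptors Nr1d1 and Nr1d2, which repress through ROR elements, did not share a pattern. Nr1d1 values were 10.55 and 10.32 in Control 1 and 2 and 10.87 and 10.32 in R-SDS 1 and 2. The arrays numbered 2 were level with each other, and the group difference of 0.16 (standard error 0.21) came with a gap of 0.55 between the R-SDS arrays. It was 0.32 within number 1, -0.0001 within number 2 and -0.12 without R-SDS 1. Nr1d2 values were 9.09 and 9.03 in Control and 9.06 and 8.97 in R-SDS. Its 4 arrays spanned 0.12, the groups overlapped, and the difference was -0.05 (standard error 0.13, 95% interval -0.37 to 0.27), with -0.04 within number 1 and -0.06 within number 2.

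Dbp encodes a transcription factor that acts on D-boxes and is a direct output of the loop. Its values were 9.21 in both Control arrays, 9.74 in R-SDS 1 and 9.22 in R-SDS 2. R-SDS 1 stood 0.52 above the next array, while R-SDS 2 exceeded the higher control by only 0.0041, and the lack of overlap rests on that gap. The means were 9.21 ± 0.0015 in Control and 9.48 ± 0.37 in R-SDS (SD, n = 2 each), a difference of 0.27 with a standard error of 0.20 and a 95% interval of -0.21 to 0.74. The difference was 0.53 (1.44-fold) within number 1 and 0.0041 within number 2, and the group difference was 0.0052 log2 units without R-SDS 1.

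The reverse omission enlarged both genes. Without R-SDS 2 the difference was 0.70 for Per1 and 0.53 for Dbp, with the lone R-SDS array assumed to vary like the controls. Both then had an unadjusted p under 0.05, as 3.87% of all transcripts had, but limma's adjusted p was 0.712 for Per1 and 1 for Dbp.

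Counted over the members, 7 had a higher mean in R-SDS and 2 (Clock and Nr1d2) a lower mean, with a median difference of 0.13 against 0.0072 over all transcripts. Without R-SDS 1, 4 were higher and 5 lower, with a median of -0.06, and without Control 2 the median was 0.0058. Groups did not overlap for 2 of 9 (Per3 and Dbp, both higher in R-SDS), beside 9.41% of all transcripts in that direction. After quantile normalisation no member stood higher without overlap and Nr1d2 stood lower, and after centring each array on its median no member was free of overlap. No member was free of overlap under all 3 scalings.

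The replicate numbers gave different pictures. Within number 1 the median difference of the members was 0.20 (all transcripts 0.0064), and within number 2 it was 0.03 (all transcripts 0.0089). Differences above 0.5 within number 1 were found for Per1 and Dbp, 2 of 9, a size reached upward by 2.32% of all transcripts and by 1.34% of those with a mean log2 value over 6. Within number 2 no member exceeded 0.5, a size reached upward by 0.528% of transcripts. For 7 of the 9 genes the difference was larger in size within number 1, as it was for 54.5% of all transcripts, though the difference between the numbers was not tested.

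**Figure D2:**
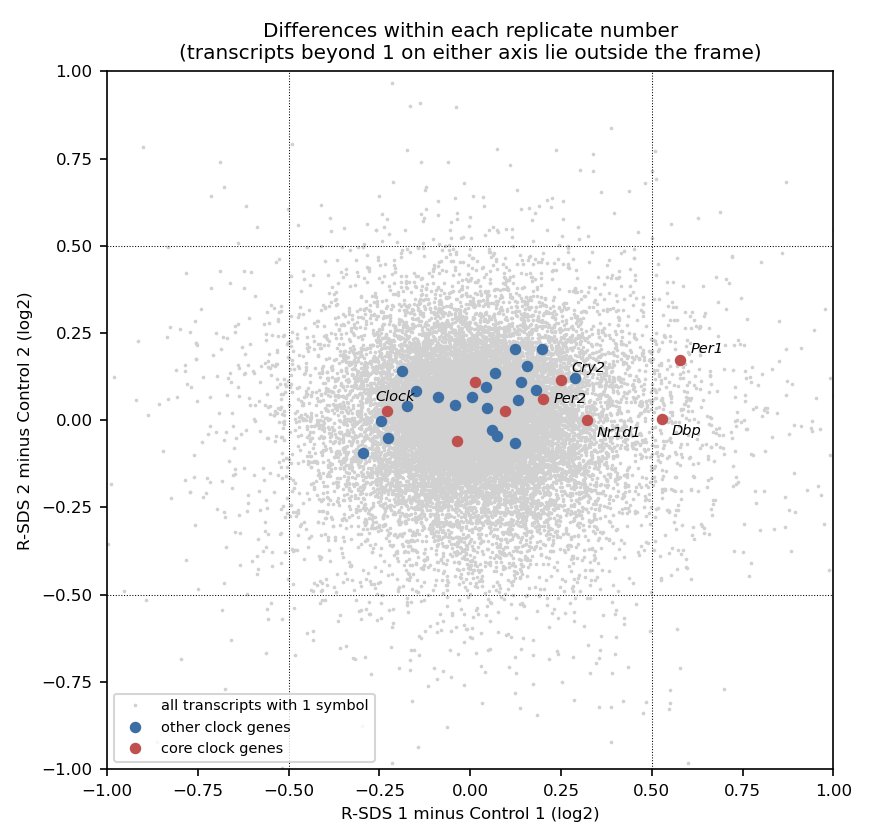
Log2 difference R-SDS 1 minus Control 1 (horizontal axis) against R-SDS 2 minus Control 2 (vertical axis) for all transcripts with 1 symbol (grey), other clock genes (blue) and core clock genes (red), with dotted lines at 0.5 in either direction. Per1 (0.58) and Dbp (0.53) lie to the right of the dotted line, and no core clock gene passes it on the vertical axis.

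Phase is read in a clock from genes that peak at opposite times, so the arrays were compared on such a contrast. Per1, Per2, Per3, Nr1d1, Nr1d2 and Dbp, which CLOCK and its partner drive, were set against Clock and Cry1, which ROR elements hold to an opposite or later phase. The contrast was the mean of the first group minus the mean of the second, after each gene was centred on its 4 arrays. It was -0.09 in either Control array, 0.30 in R-SDS 1 and -0.12 in R-SDS 2. R-SDS 1 was the only positive array of the 4, and because centred values add up to 0, a high array places the others below 0. The sign held in each array after quantile normalisation (0.28 in R-SDS 1), without Cry1 (0.51) and with 6 further clock genes added (0.19).

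The driven group made up most of that contrast, at 0.26 in R-SDS 1, against -0.03 for Clock and Cry1 together. Within the latter, Clock was low and Cry1 high in R-SDS 1. R-SDS 1 held the highest value of 7 of the 9 members (6 after quantile normalisation, without Per3), where 29.3% of all transcripts and 38.9% of those with a mean over 6 were highest in that array. Clock was lowest there, as were 27.1% of all transcripts. The choroid plexus markers were also highest in this array, and their part in the contrast was not tested.

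**Figure D3:**
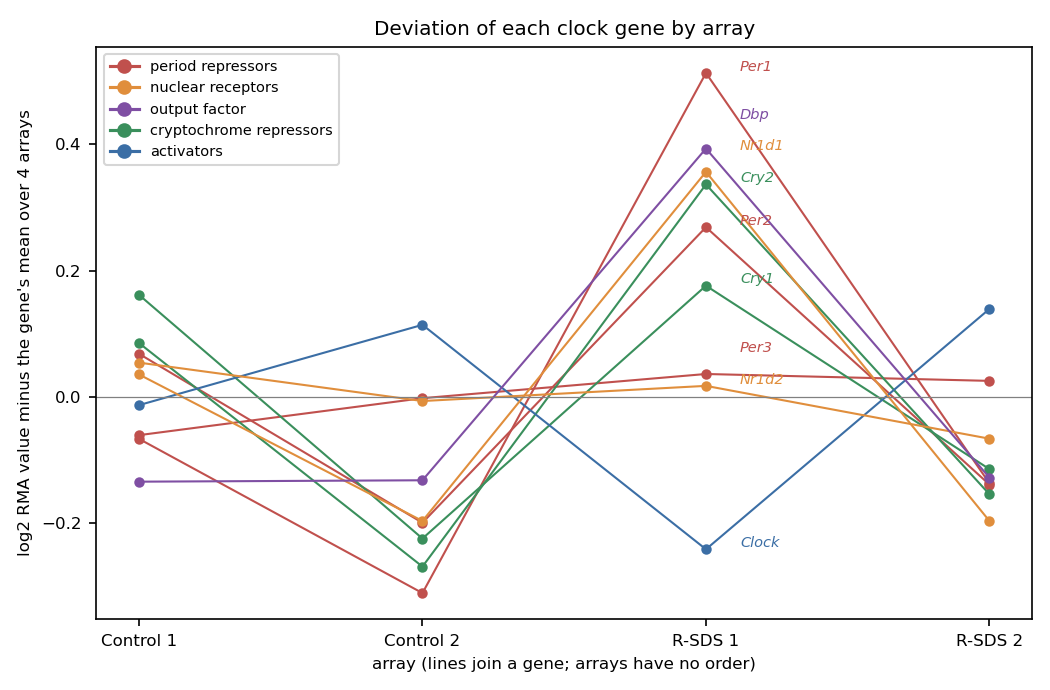
Log2 RMA value of each core clock gene minus its own mean over the 4 arrays (vertical axis) by array (horizontal axis), coloured by role, with lines joining the points of a gene. In R-SDS 1 Per1, Dbp, Nr1d1, Cry2, Per2 and Cry1 lie above 0 and Clock lies below it, whereas Per3 and Nr1d2 stay near 0 in every array.

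The rest of the pathway was taken from a list of 24 further clock genes, of which 22 were measured. Of these 15 had a higher and 7 a lower mean in R-SDS, with a median difference of 0.03, and 0 passed the adjusted p or an unadjusted p under 0.05. Without R-SDS 1, 8 were higher and 14 lower, and without Control 2, 7 were higher and 15 lower. Groups did not overlap for 4 genes higher in R-SDS (Ciart, Timeless, Rorb and Fbxl21), beside 9.41% of all transcripts in that direction, and for Rora, lower in R-SDS, beside 9.06%. None differed by more than 0.5 within either number.

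The further activators Arntl, Arntl2, Rora and Rorb had a median difference of -0.13, with 3 of the 4 lower in R-SDS. The median was -0.0096 without Control 1 and -0.0363 without R-SDS 1. Arntl, the gene of BMAL1, read 7.58 and 7.32 in Control 1 and 2 and 7.36 and 7.27 in R-SDS 1 and 2. Its difference within number 1 was -0.23, but the R-SDS 1 value lay between the controls. Rora, an activator at ROR elements, read 8.28 and 8.06 in Control and 8.04 and 8.06 in R-SDS, so 3 of the arrays were nearly level and Control 1 was high. Arntl2, a relative of Arntl, read 6.49 and 6.75 in Control and 6.19 and 6.66 in R-SDS. It was lowest in R-SDS 1, as Clock was, with a group difference of -0.19 (standard error 0.20), and turned to 0.04 without that array.

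The D-box factors Tef, Hlf and Nfil3 had a median difference of 0.10, with 3 of 3 higher in R-SDS and all highest in R-SDS 1. Without R-SDS 1 the median was -0.0353 and without Control 2 -0.0607, with 1 of 3 higher in each case. Bhlhe40, a repressor at E-boxes, read 9.02 and 8.63 in Control and 9.15 and 8.84 in R-SDS, a difference of 0.16 (standard error 0.19) with overlapping groups. It was 0.0098 without R-SDS 1 and -0.031 without Control 2. Ciart, another repressor of the loop, read 6.82 and 6.92 in Control and 7.11 and 7.04 in R-SDS, a difference of 0.21 (standard error 0.13). A further transcript cluster of Ciart gave -0.09, so the probes of this gene disagreed in direction. Timeless, which acts at replication forks, read 5.48 and 5.50 in Control and 5.68 and 5.70 in R-SDS, and its difference of 0.20 (standard error 0.13) did not pass the test. Kinases and ubiquitin ligases that act on PER and CRY proteins had a median of 0.03 over 6 genes.

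**Figure D4:**
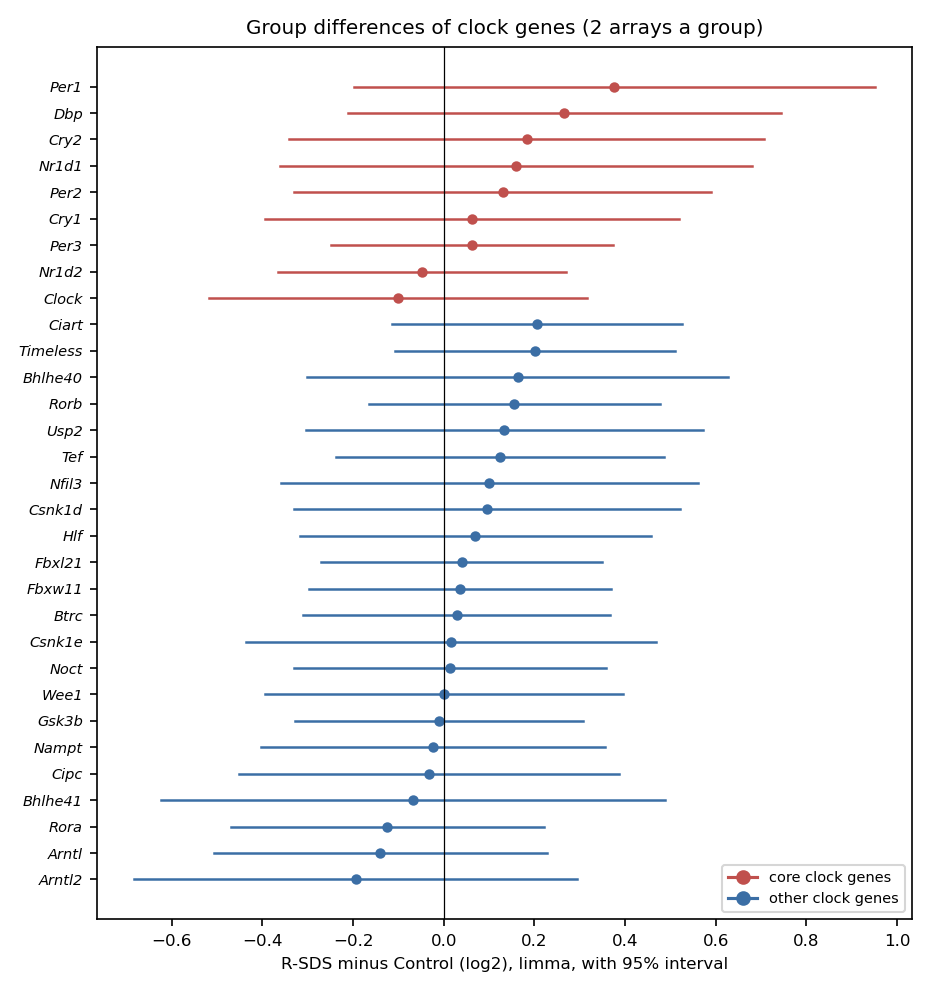
Log2 difference R-SDS minus Control (horizontal axis, point) with its 95% interval from limma (line) for core clock genes (red) and other clock genes (blue), from 2 arrays a group. The interval of every gene crosses 0, and the largest difference is that of Per1 (0.38).

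Per1 responds to glucocorticoids and to neuronal activity as well as to the clock, so genes of both responses were set beside it. By the study's schedule the hippocampus was taken days after the last defeat, with a social interaction test and a sucrose preference test in between. Of 13 measured glucocorticoid-induced genes (14 listed), 12 had a higher mean in R-SDS, with a median difference of 0.17, and 0 passed the adjusted p. Without R-SDS 1, 6 of the 13 were higher and the median was -0.02. Sgk1, a kinase gene, read 7.82 and 7.67 in Control and 8.46 and 7.86 in R-SDS. Both R-SDS arrays were above the controls, with R-SDS 1 the high one. The difference was 0.41 with a standard error of 0.22, and 0.11 without R-SDS 1. Errfi1 differed by 0.31 within either number and by 0.21 without R-SDS 1. Tgm2 had a group difference of 0.39, and 0.15 without R-SDS 1. Groups did not overlap for 4 of the 13 genes, all higher in R-SDS, beside 9.41% of all transcripts in that direction. Within number 1 the median of the list was 0.30, within number 2 it was 0.07, and R-SDS 1 was highest for 12 of 13 genes. The members of the clock list gave 0.20 and 0.03 in the same comparisons.

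Of 10 immediate early genes, which neurons switch on with activity, 9 had a higher mean in R-SDS, with a median of 0.16. The median was 0.24 within number 1 and 0.09 within number 2. Without R-SDS 1, 2 of the 10 were higher and the median was -0.07, and without Control 2, 5 were higher and the median was -0.03. Nr4a1, a nuclear receptor gene of this class, read 8.70 and 8.46 in Control and 9.47 and 8.58 in R-SDS, so R-SDS 1 alone was high. Its difference was 0.45 with a standard error of 0.29, and 0.0011 without R-SDS 1. Npas4, an activity-induced factor of neurons and a relative of Npas2 in name and domain type, went the other way and read 7.35 and 6.77 in Control and 6.36 and 6.59 in R-SDS. Both R-SDS arrays lay below both controls. The difference of -0.59 (95% interval -1.12 to -0.05) passed the thresholds of the study as applied to limma's unadjusted p, but not the adjusted p. With Control 1 left out it was -0.30, with R-SDS 1 left out -0.47, and it passed those thresholds in neither case.

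**Figure D5:**
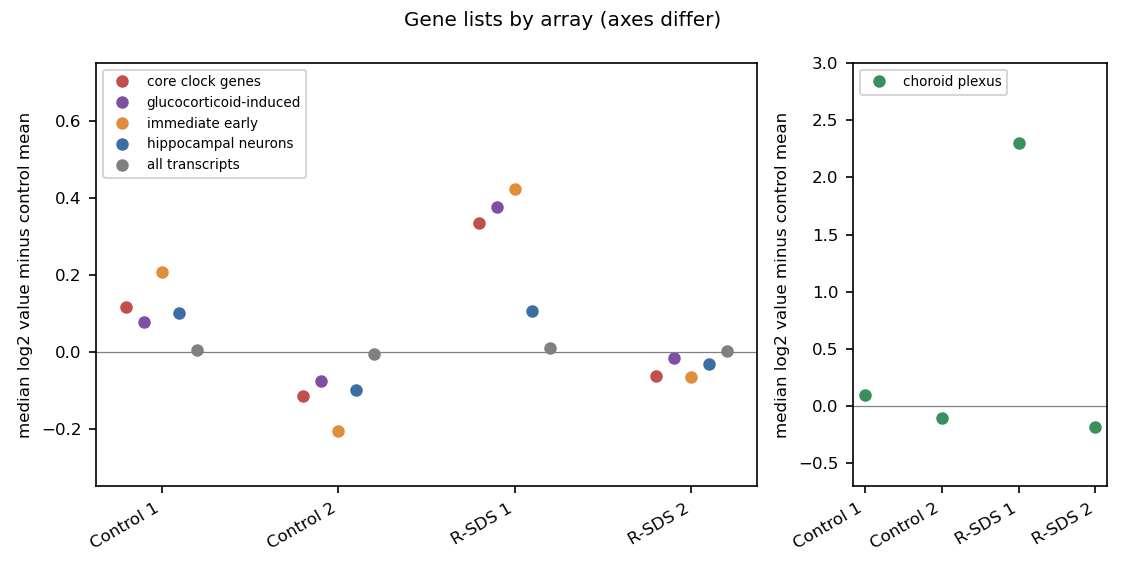
Median over the genes of a list of the log2 value minus the gene's control mean (vertical axis) in each array (horizontal axis), for core clock, glucocorticoid-induced, immediate early and hippocampal neuron genes and all transcripts (left) and choroid plexus markers (right, on a longer axis). In R-SDS 1 the core clock genes stand at 0.33, the glucocorticoid-induced genes at 0.37, the immediate early genes at 0.42 and the choroid plexus markers at 2.30. In R-SDS 2 these lists stand at -0.06, -0.02, -0.07 and -0.18, in the same order.

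The genes nearest in pattern were found by the root mean square distance between centred log2 values over the 4 arrays, among 11602 other genes with a mean over 6. Nearest to Per1, which was also the member of widest range, were Scpep1 (0.0281), Mvd (0.0296), Slc12a4 (0.0314), Ctsc (0.033) and Vcam1 (0.0332). Vcam1, an adhesion molecule of vessels, read 7.48 and 7.29 in Control and 8.14 and 7.42 in R-SDS. It shared the high R-SDS 1 value with Per1. Nearest to Dbp were Rps15 (0.0102), Lurap1l (0.0111), Sh3d19 (0.0115), Fbxo36 (0.017) and Cd63 (0.0192). No clock gene was among these 10 nearest genes.

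The other members ranked from near to far. Counted from Per1, Dbp ranked 149, Nr1d1 154, Cry2 172 and Per2 425 of 11602, while Cry1 ranked 1777, Per3 6500, Nr1d2 6728 and Clock 10980. From Dbp, Nr1d1 ranked 214, Per1 359, Per2 508 and Cry2 691, while Cry1 ranked 3447, Per3 4934, Nr1d2 6021 and Clock 10985. Arntl ranked 8065 from Per1 and 8887 from Dbp. These ranks rest on 4 arrays that share 1 high array, and they describe the arrays with no test.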

How the data were processed

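Hippocampal RNA of 2 Control and 2 R-SDS samples was hybridised to Affymetrix whole-transcript mouse gene arrays. The deposited values are log2 intensities that the authors made by RMA (Affymetrix Expression Console). They carry no detection call, and precision is limited by how few arrays there are. Sources differ on the labelling kit and give no genome build. Groups and numbers came from sample titles. The methods speak of 2 mice for R-SDS, and the labels describe each sample as from a mouse, so p-values measure the spread among very few animals.

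Of 35556 rows, the 21789 with 1 symbol were fitted with limma 3.58.1 (lmFit, eBayes, 2 residual degrees of freedom) in R 4.3.3, without a filter, and adjusted by Benjamini-Hochberg. Each gene was represented by its row of highest mean. Named genes were all members and the 5 nearest to Per1 and Dbp. Up to 4 genes of largest difference per response list and those past the thresholds of the study were also named. Rora, Arntl, Rorb, Fbxl21, the D-box factors, C1ql2, Dsp, Cldn2, Steap1, Calml4 and F5 were named after their values were seen. Members and lists were chosen with earlier results of these data known. In simulated data, limma at an adjusted p under 0.05 recovered 0% of differences of 0.5 log2 units. It recovered 24% of those of 1 and 98% of those of 2, with 6 false calls. The lack of a call therefore does not show that a difference of 1 log2 unit or less is absent. Alternatives were quantile normalisation, median centring, a mean over 6, an intensity trend, the methods' t-test, the replicate block, the mean over all rows of a gene, other genes in the phase contrast and leaving out each array. Plots used matplotlib 3.10.9.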

Additional observations from a re-analysis of the deposited data

How the results depend on the processing

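Over all transcripts, 0 were called by limma (221 at an unadjusted p under 0.05, and 440 by the methods' t-test, which also called 0). The count was 1 after median centring and 0 to 49 with an array left out (2 without R-SDS 1, 49 without R-SDS 2). The thresholds of the study passed 74 transcripts, 11 with a mean over 6, 19 by the methods' t-test and 174 to 739 with an array left out. For the members, 18 of 18 differences under the other scalings kept their sign. Of 36 member tests under quantile normalisation, median centring, the filter and the block, 0 gave a call. The intensity trend and the methods' t-test also called 0 members. The filter, the block and the mean over all rows leave a member's difference as it is by construction. Median centring shifts every member's difference by the same amount. That shift was too small to turn any sign (Nr1d2, the smallest difference, went from -0.0482 to -0.0315). With an array left out, 4 members kept their sign (Per1 0.05 to 0.70, Per3 0.03 to 0.09, Nr1d2 -0.09 to -0.0064, Dbp 0.0052 to 0.53) and 5 turned. Per2 ran from -0.0733 to 0.33 (-0.0733 without R-SDS 1, -0.0034 without Control 2), Cry1 from -0.13 to 0.255 (-0.083 without R-SDS 1, -0.13 without Control 2), Cry2 from -0.0625 (without R-SDS 1) to 0.4279, Clock from -0.2917 to 0.0887 (without R-SDS 1) and Nr1d1 from -0.116 (without R-SDS 1) to 0.4366. The median of the members ran from -0.06 without R-SDS 1 to 0.33 without R-SDS 2. Members without overlap numbered 2, against 1 after quantile normalisation, 0 after median centring and 5 without R-SDS 1 (3 higher, 2 lower), an alternative chosen after seeing the data, in which a lone R-SDS array lay outside both controls for 52.4% of all transcripts. Leaving out arrays for the other gene lists was also chosen then. The phase contrast of Control 1 was -0.10 after quantile normalisation, -0.0041 without Cry1 and -0.10 with longer groups, and that of Control 2 was -0.0669, -0.26 and -0.0428. Where values moved, the cause was not tested.

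The labels do not say that a number pairs samples. Deviations of same-numbered arrays correlated at 0.517 across transcripts, which are not independent. With the replicate block, 0 transcripts and 0 members passed the adjusted p, and 1047 of 21789 transcripts had an unadjusted p under 0.05, on 1 residual degree of freedom. Per1 was the 1 member among them.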
